A study of Rattus norvegicus with 13 samples.

Results

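The chemokine system of the rat ocular surface was described here from 56 genes, 34 chemokine ligands and 22 receptors, among 28357 gene rows of each day 3 table. They were every row whose symbol starts with Ccl, Cxcl, Cx3cl, Xcl, Ccr, Cxcr, Cx3cr, Xcr or Ackr followed by a number. Of the receptors, 3 were atypical ones (Ackr2, Ackr3 and Ackr4). Ackr1, Ccl8, Ccl23 and Cxcl5 were not analysed here.

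RNA had been sequenced from the peripheral cornea and limboscleral tissue of wild-type male Lewis rats aged 2 months. All animals carried a limbal stem cell deficiency, a loss of the stem cells that renew the corneal epithelium, used as a model of corneal neovascularization. One group (3 libraries) received spironolactone, an antagonist of the mineralocorticoid receptor, subcutaneously at 25 mg/kg/day, and the other (3 libraries) received the vehicle of 90% olive oil and 10% DMSO. Tissue was taken at day 3, and no unoperated group is analysed here. Since no label says that each library is a different animal, p-values here measure the spread between these libraries alone.

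Chemokines are small secreted proteins that guide leukocytes along gradients through G protein-coupled receptors. Inflammatory ligands such as Cxcl1 and Ccl2 are switched on in epithelial, stromal and myeloid cells by cytokines and injury, and draw neutrophils and monocytes into the normally avascular cornea. Homeostatic ligands such as Cxcl12 are made continuously and position resident cells. Atypical receptors bind chemokines without G protein signalling and clear them.

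The sequences that follow, picked after the values were seen, lie upstream of the ligands with the lowest values relative to vehicle among the neutrophil ligands (Cxcl1, Cxcl2 and Cxcl6) and upstream of Ccl20. Cxcl14, which had lower values, and Cxcl16, whose values were almost level between groups, are shown for contrast. Each is the 120 bases before the RefSeq start site on the GRCr8 assembly, 5′ to 3′ on the gene's strand, and capitals mark bases that match GGGNNNTTCC, the core of NF-kappa-B-type sites, on either strand. The windows are chr14:17479322-17479441 (minus strand) for Cxcl1, chr14:17467256-17467375 (minus) for Cxcl2, chr14:17596418-17596537 (minus) for Cxcl6 and chr9:91837039-91837158 (plus) for Ccl20. Those of Cxcl14 and Cxcl16 are chr17:8323030-8323149 (plus) and chr10:55669951-55670070 (minus).
Cxcl1: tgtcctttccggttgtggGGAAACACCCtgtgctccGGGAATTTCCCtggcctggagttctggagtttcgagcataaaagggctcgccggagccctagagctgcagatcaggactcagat
Cxcl2: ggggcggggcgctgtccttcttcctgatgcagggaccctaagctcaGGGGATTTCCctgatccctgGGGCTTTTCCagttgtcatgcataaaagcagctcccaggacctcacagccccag
Cxcl6: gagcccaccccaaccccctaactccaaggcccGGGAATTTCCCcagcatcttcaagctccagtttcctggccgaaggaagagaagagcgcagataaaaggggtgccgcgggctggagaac
Ccl20: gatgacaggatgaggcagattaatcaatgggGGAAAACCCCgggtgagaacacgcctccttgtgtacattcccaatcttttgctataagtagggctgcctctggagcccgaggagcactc
Cxcl14: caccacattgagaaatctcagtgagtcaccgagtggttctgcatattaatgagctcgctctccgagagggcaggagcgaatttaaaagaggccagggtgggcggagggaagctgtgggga
Cxcl16: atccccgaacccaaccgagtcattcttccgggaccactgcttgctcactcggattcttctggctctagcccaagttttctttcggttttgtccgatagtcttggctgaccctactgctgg

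Within the 250 upstream bases, 3 matches were found for Cxcl1, 2 for Cxcl2, 2 for Cxcl6, 1 for Ccl20 and 0 for Cxcl14 and Cxcl16. Overlapping matches were counted: those that begin 84 and 83 bases before the start site of Cxcl1, and 88 and 87 before that of Cxcl6, share most of their bases. The RefSeq table held promoters for 43 of the 56 genes. Cxcl3, Ccl2 and Ccl11 were among the genes without one, so no match could be looked for there. A link between matches and fold changes was not tested. A match lay in 10 of these 43 (23.3%) and in 9 of 28 ligand promoters (32.1%), against 1516 of all 33469 promoters (4.53%). The 9 ligands were Ccl6, Ccl7, Ccl9, Ccl20, Cxcl1, Cxcl2, Cxcl6, Cxcl10 and Cxcl11, and the receptor was Ccr3. Of these genes Ccl6, Cxcl10 and Cxcl11 had positive log2 fold changes; that of Cxcl10 was 0.13 without spironolactone replicate 3, and those of Ccl6 and Cxcl11 changed sign when 1 library was left out.

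Depth was 18.2 to 25.3 M expected counts per library. Both replicates 3 stood apart in tissue content. The 8 retina genes on a list of 11 retina and lens genes summed to 197 TPM (transcript abundance per gene length, scaled to a fixed total) in spironolactone replicate 3. The sums were 2778 and 3581 TPM in spironolactone replicates 1 and 2, and 4346 to 4869 TPM with vehicle. All spironolactone libraries thus lay below all vehicle libraries for the retina genes. The 3 lens crystallins summed to 791 TPM in vehicle replicate 3, against 2.16 to 62.1 TPM in the others. Skeletal muscle genes also differed, with sums over 12 genes of 206 to 369 TPM with spironolactone and 698 to 1569.5 TPM with vehicle. The 11 corneal and limbal epithelial markers summed to 14495 to 17236 TPM with spironolactone and 8512 to 11875 TPM with vehicle. The epithelial, muscle and retinal shares of the RNA thus differed between the groups in the same tissue pieces that gave the chemokine values. The part of these shares in the chemokine values was not tested. In bulk tissue, fewer cells of a type and less RNA per cell cannot be told apart.

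Of the 56 genes, 42 passed the expression filter of the test: 28 of 34 ligands, 11 of 19 conventional receptors and 3 of 3 atypical receptors. A mean TPM of at least 1 was reached by 37 and of at least 10 by 19. The summed TPM of all 56 was 930.0 to 1426 with spironolactone and 1080.4 to 1505 with vehicle, and these ranges overlap. A few ligands held most of it, since the 10 most abundant genes gave 79.6% to 85.0% of the sum. By mean TPM over the 6 libraries the order was Ccl6 (390), Ccl11 (121), Cxcl16 (89.0), Ackr3 (75.1), Cxcl3 (74.4), Ccl2 (68.1), Cxcl6 (54.2), Ccl7 (49.2), Cxcl12 (41.4) and Cx3cl1 (30.4). Apart from Ccl6, neighbours in this order overlapped over the libraries. Ackr3 was the most abundant receptor, above Cx3cr1 (14.0 TPM) and Cxcr4 (11.6 TPM), among others.

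**Figure D1:**
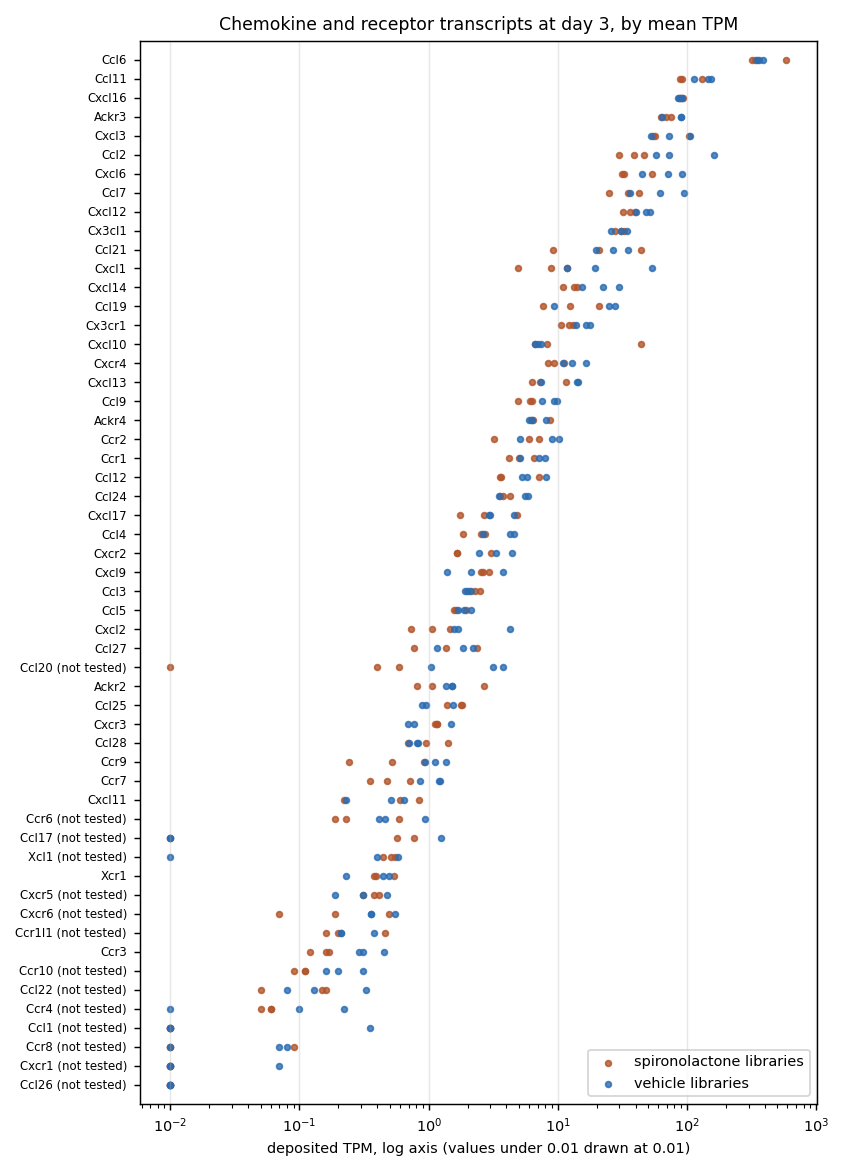
Deposited TPM of chemokine genes in each day 3 library on a log axis, ordered by mean TPM (points: libraries; orange, spironolactone; blue, vehicle; values under 0.01 drawn at 0.01). Ccl6 stands above all others at a mean of 390 TPM.

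The 14 genes that did not pass the filter were Ccl1, Ccl17, Ccl20, Ccl22, Ccl26, Ccr1l1, Ccr4, Ccr6, Ccr8, Ccr10, Cxcr1, Cxcr5, Cxcr6 and Xcl1. Many belong to lymphocyte recruitment: Ccr4 with its ligands Ccl17 and Ccl22, the skin-homing receptor Ccr10, the follicular receptor Cxcr5 and the Cxcl16 receptor Cxcr6. Ccl26 had 0 counts among the 132.6 M of all 6 libraries, which allows up to 0.0226 CPM (counts scaled to library size), for counting error only. Cxcr1, the second neutrophil receptor, had 1 count in all.

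Between spironolactone and vehicle, no chemokine gene passed edgeR's quasi-likelihood test with Benjamini-Hochberg adjustment over all 14762 genes tested, and neither did any other gene (0%). At an unadjusted p under 0.05, 10 of the 42 (23.8%) had lower values with spironolactone, against 10.4% of all genes tested, and 0 had higher values, against 12.2%. They included Ccl2, Ccl9, Ccr3, Ccr7, Cx3cr1, Cxcl1, Cxcl12, Cxcl14 and Cxcr4. Leaving out 1 library moved this number. It came to 4 when vehicle replicate 1 was dropped, 5 when replicate 2 of either group was, 7 when spironolactone replicate 3 was, 12 when spironolactone replicate 1 was and 17 when vehicle replicate 3 was. With neither replicate 3 it came to 13. DESeq2 called 3 of the 39 chemokine genes to which it gave an adjusted p, all with lower values (Ccl20, Cxcl6 and Cxcl14), and limma-voom called 0. At an unadjusted p under 0.05 these tools gave 11 and 10 lower and 0 higher. DESeq2 called 3.44% of all genes lower and 5.81% higher.

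The fold changes of the 42 leaned to lower values with spironolactone, with 29 negative and 13 positive. Their median log2 fold change was -0.32, against -0.01 for all genes tested, and they ran from -1.67 to 1.56. Per library, the median of log2(TMM-normalised CPM + 0.1) minus the vehicle mean was -0.017, -0.50 and -0.36 with spironolactone. It was 0.11, 0.13 and -0.26 with vehicle, so spironolactone replicate 1 lay above vehicle replicate 3 and the groups overlapped. Ligands had 19 negative values of 28 and a median of -0.24, and conventional receptors 9 of 11 and a median of -0.46. The separation of single libraries was not beyond that of other genes. In TMM-normalised CPM, which is used below for each gene's values, all spironolactone libraries lay below all vehicle libraries for 7 of the 42 (16.7%), against 16.1% of all genes. They lay above for 1, Ccl3, against 16% of all genes. In TPM, 10 (23.8%) lay below, against 23.1% of all genes, and 0 above, against 9.86%.

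**Figure D2:**
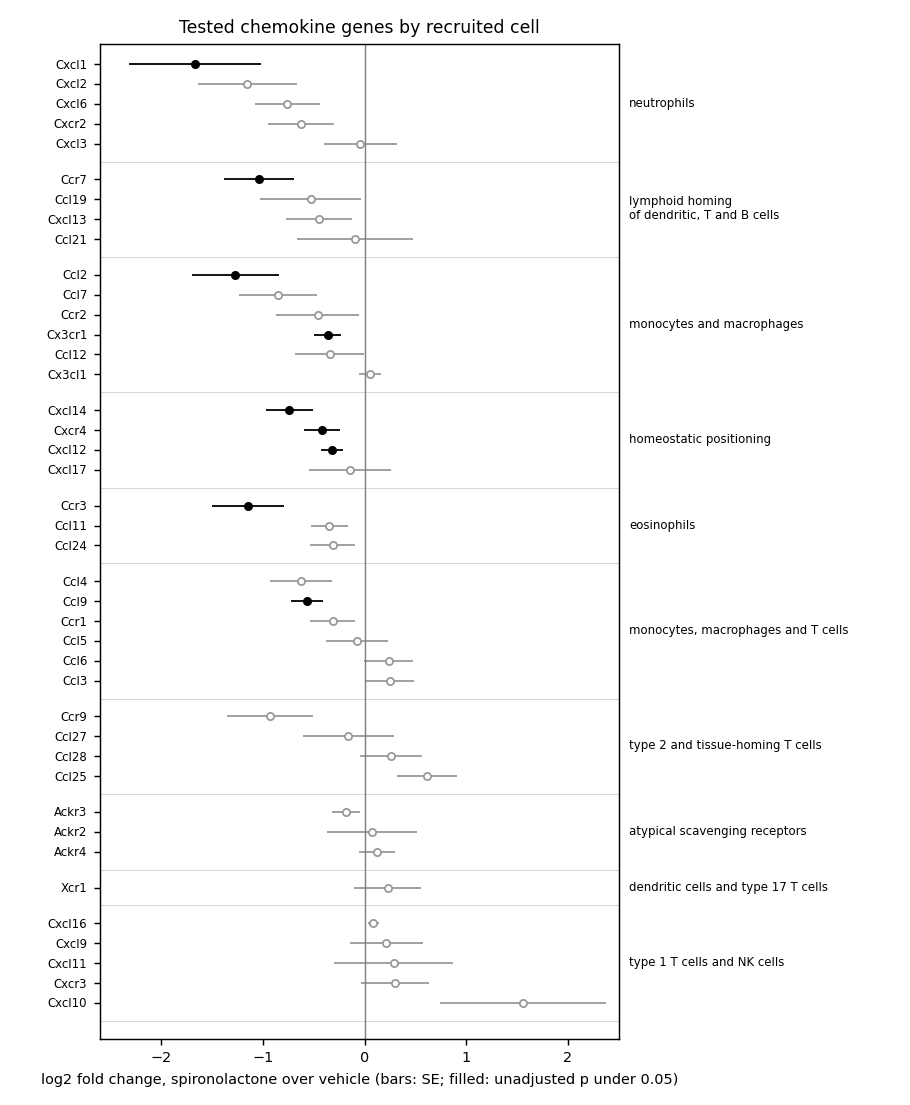
Log2 fold change of tested genes, spironolactone over vehicle, grouped by the cells they recruit (points: edgeR estimates; bars: SE; filled: unadjusted p under 0.05). The neutrophil group lies at or below 0 throughout and the type 1 T and NK cell group above 0 throughout; no gene passed the adjusted test.

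Neutrophil ligands had lower values with spironolactone except Cxcl3. All 5 tested genes of the 6 in this group had negative fold changes, with a median of -0.76, and 1 had an unadjusted p under 0.05. Cxcl1, a Cxcr2 ligand made early after injury, measured 6.03, 2.497 and 4.55 normalised CPM with spironolactone and 25.8, 9.41 and 5.90 with vehicle. Vehicle replicate 1 was far above the rest, and the groups overlapped, since vehicle replicate 3 lay under spironolactone replicate 1. The log2 fold change was -1.67 (SE 0.65, edgeR adjusted p = 0.212), 3.18-fold lower, and -0.81 without vehicle replicate 1. Cxcl2, a close relative with the same receptor, was scarce: 0.902, 0.644 and 0.450 against 2.49, 0.985 and 0.927 normalised CPM. Its groups did not overlap, though the nearest libraries were almost level, and the log2 fold change was -1.15 (SE 0.49, edgeR adjusted p = 0.222), or -0.53 without vehicle replicate 1.

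Cxcl6, the most abundant neutrophil ligand after Cxcl3, measured 52.9, 31.7 and 31.6 normalised CPM with spironolactone and 86.0, 67.0 and 43.5 with vehicle. Only vehicle replicate 3 lay within the spironolactone range. The log2 fold change was -0.76 (SE 0.32, edgeR adjusted p = 0.232), and DESeq2 gave -0.75 with an adjusted p of 0.0471. Cxcl3, of the same Cxcr2 ligand family, was level: 64.4, 34.9 and 34.1 against 62.6, 42.6 and 31.7 normalised CPM. Its log2 fold change was -0.04 (SE 0.36, edgeR adjusted p = 0.956) and was positive without spironolactone replicate 2, spironolactone replicate 3 or vehicle replicate 1. Replicate 1 was the highest library in both groups. Cxcr2, the receptor of these ligands on neutrophils, measured 2.37, 1.29 and 1.30 against 2.45, 3.27 and 1.86 normalised CPM, with overlapping groups and a log2 fold change of -0.62 (SE 0.33, edgeR adjusted p = 0.300).

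Cxcl2, Cxcl1, Cxcl3 and Cxcl6 follow one another in the GRCr8 gene order with at most 2 other coding genes between neighbours. Ratios of TPM within a library do not depend on scaling between libraries, and 4 ratios of ligands from the same cluster were computed after the values had been seen. The ratio of Cxcl1 to Cxcl3 was 0.114, 0.0866 and 0.161 with spironolactone and 0.499, 0.267 and 0.225 with vehicle. All 3 spironolactone ratios lay below all 3 vehicle ratios, a log2 difference of -1.41 (exact two-sided permutation p = 0.1, the smallest that 3 against 3 allows). The ratio of Cxcl6 to Cxcl3 separated in the same way with little spread within a group: 0.515, 0.568 and 0.581 against 0.859, 0.983 and 0.860, a log2 difference of -0.70 (exact permutation p = 0.1). After Benjamini-Hochberg adjustment over the 4 ratios both exact p-values were 0.133. Within a library, Cxcl1 and Cxcl6 both stood lower relative to Cxcl3 with spironolactone. Cxcl3, already seen to be level, was the denominator of both ratios. They thus follow largely from the fold changes above and are no separate result. Near-identical members of this family may share reads. The expected counts of all 4 were whole numbers in every library, and read sharing was not tested.

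Markers of neutrophils had lower values alongside their ligands. Their 12 genes summed to 67.8 to 103 TPM with spironolactone and 107 to 149 TPM with vehicle. Most of each sum was S100a8 and S100a9. S100a8 stood at 33.6 to 48.7 against 46.1 to 61.2 TPM, and S100a9 at 21.2 to 34.1 against 38.4 to 57.7 TPM. All 7 tested markers had negative fold changes, 4 (57.1%) at an unadjusted p under 0.05, against 10.4% of all genes tested. Among these 4 were the alarmin S100a9 (log2 fold change -0.83) and the granule collagenase Mmp8 (-1.60). Ngp, Camp, Mpo, Elane and Retnlg did not pass the filter. Elane, a defining granule protease, was listed at 0 in every library except vehicle replicate 2. The part of neutrophil number in the ligand values was not tested.

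**Figure D3:**
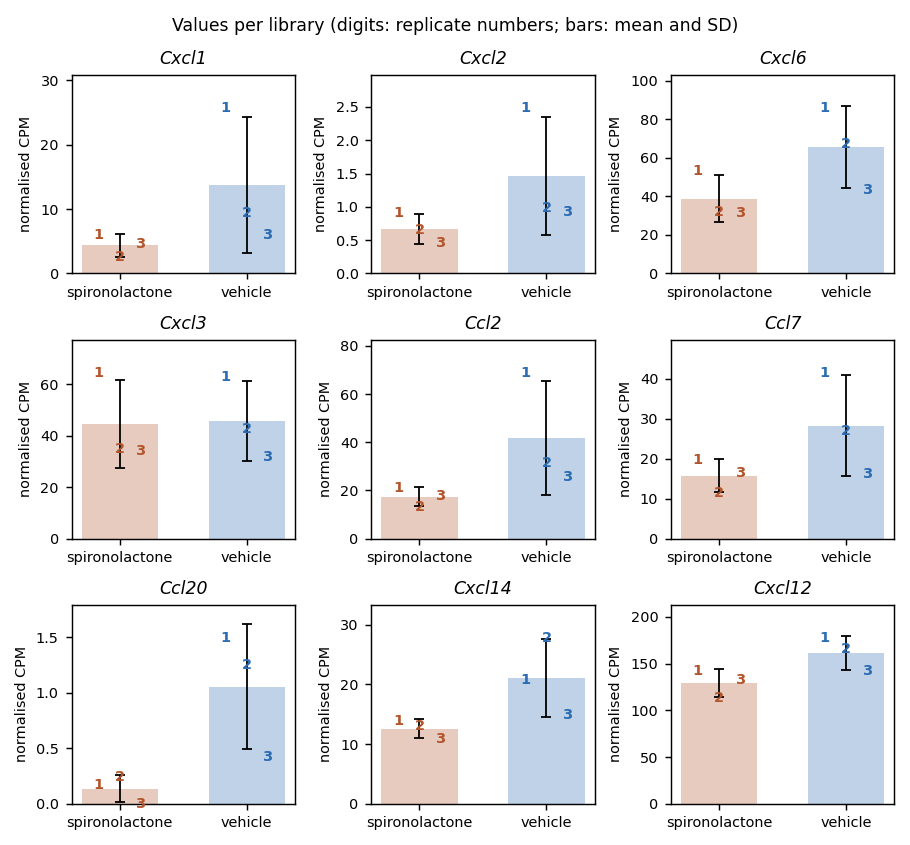
Normalised CPM of 9 ligands in each library (digits: replicate number; bars: mean; whiskers: SD; n = 3 per group). Vehicle replicate 1 is the highest library for Cxcl1, Cxcl2, Cxcl6, Ccl2, Ccl7 and Ccl20, whereas Cxcl3 is as high in spironolactone replicate 1.

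Among the genes that recruit monocytes and macrophages, the ligands Ccl2 and Ccl7 had lower values with spironolactone and Cx3cl1 did not. This group had 5 negative values among 6 tested genes, 2 at an unadjusted p under 0.05, and a median of -0.41. Ccl2, the main ligand that draws Ccr2-positive monocytes from blood, measured 21.1, 13.3 and 17.8 normalised CPM against 68.8, 31.2 and 25.4 with vehicle. The groups did not overlap, and vehicle replicate 1 was the highest. The log2 fold change was -1.27 (SE 0.43, edgeR adjusted p = 0.173), 2.41-fold lower, and -0.70 without vehicle replicate 1. Its neighbour Ccl7, a ligand of Ccr2 as well, measured 19.6, 11.3 and 16.3 against 41.4, 27.0 and 16.2, a log2 fold change of -0.85 (SE 0.38, edgeR adjusted p = 0.257), or -0.45 without vehicle replicate 1. Vehicle replicate 3 lay among the spironolactone libraries. The ratio of Ccl2 to Ccl7 overlapped between the groups (1.10, 1.21 and 1.12 against 1.70, 1.18 and 1.60; exact two-sided permutation p = 0.2). Ccl12, a rodent ligand of Ccr2, had a log2 fold change of -0.34.

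Ccr2 was low, with 0.451, 0.524 and 0.250 normalised CPM against 0.705, 0.627 and 0.379, overlapping groups and a log2 fold change of -0.46 (SE 0.41, edgeR adjusted p = 0.513). Its gene model in the tables is 286 bases long and its expected counts were not all whole numbers, so it may share reads with another gene. Cx3cr1, the fractalkine receptor of resident macrophages and patrolling monocytes, measured 10.4, 8.22 and 9.65 against 12.4, 13.3 and 10.6. The groups met almost edge to edge without overlap, with a log2 fold change of -0.36 (SE 0.13, edgeR adjusted p = 0.169). Its ligand Cx3cl1, a membrane-bound chemokine, was level at 65.7, 61.3 and 56.5 against 59.1, 66.6 and 50.7, a log2 fold change of 0.06 (SE 0.11, edgeR adjusted p = 0.772). The 14 monocyte and macrophage markers summed to 1517 to 1994 TPM with spironolactone and 1894 to 2437 TPM with vehicle, 13 with negative fold changes and 4 at an unadjusted p under 0.05; their part in these values was not tested.

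The inflammatory CC ligands and receptors that serve monocytes, macrophages and T cells, Ccr1 among them, were mixed. Of 8 genes 7 were tested, 5 with negative values and 2 at an unadjusted p under 0.05, and the median was -0.31. Ccl6, a rodent ligand of Ccr1, was the most abundant chemokine and gave 23.2% to 41.1% of the summed TPM of all 56 genes. It measured 481, 272 and 263 normalised CPM with spironolactone and 271, 285 and 307 with vehicle. Only spironolactone replicate 1 was high, and the log2 fold change of 0.24 (SE 0.25, edgeR adjusted p = 0.586) became -0.10 without it. Ccl9, the neighbouring gene and a Ccr1 ligand too, measured 4.85, 4.59 and 3.80 against 7.09, 6.85 and 5.61. Here the groups did not overlap and no single library stood out. The log2 fold change was -0.56 (SE 0.16, edgeR adjusted p = 0.107), and it lay between -0.47 and -0.64 whichever library was left out. The ratio of Ccl9 to Ccl6 was 0.0108, 0.0181 and 0.0155 with spironolactone and 0.0281, 0.0259 and 0.0196 with vehicle, a log2 difference of -0.74 without overlap (exact two-sided permutation p = 0.1).

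Ccr1 had a log2 fold change of -0.31. The inflammatory ligands Ccl3, Ccl4 and Ccl5 were all low, with mean TPM of 2.13, 3.09 and 1.81 and log2 fold changes of 0.25, -0.63 and -0.08. Differences among them were not tested.

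The tested genes that recruit type 1 T cells and NK cells all had positive values, none with an unadjusted p under 0.05. The median over 5 tested genes of 6 was 0.29. Cxcl10, an interferon-induced ligand of Cxcr3, measured 5.41, 4.31 and 29.4 normalised CPM with spironolactone and 4.40, 4.66 and 4.21 with vehicle. Spironolactone replicate 3 alone, the library with few retinal transcripts, gave its log2 fold change of 1.56 (SE 0.81, edgeR adjusted p = 0.316), which was 0.13 without it. Cxcl9 and Cxcl11, which share the receptor and lie beside Cxcl10 in the genome, had log2 fold changes of 0.21 and 0.29 and changed sign when a library was left out. Cxcr3 itself had 0.30. Cxcl16, a membrane-bound ligand of Cxcr6, was among the steadiest of the abundant ligands: 98.2, 92.6 and 90.9 against 91.2, 87.6 and 86.4 normalised CPM. Its log2 fold change was 0.09 (SE 0.05, edgeR adjusted p = 0.355). The T and NK cell markers went the other way. At an unadjusted p under 0.05, 1 of the 10 tested of 13 was lower (10%), against 10.4% of all genes tested. All 10 had negative fold changes. These log2 fold changes ran from -0.92 to -0.01, with -0.07 for Cd3e and -0.17 for Lck. The markers summed to 82.2 to 105 TPM against 94.8 to 137 TPM. Most of each sum was Cd4 alone, at 58.38 to 61.81 TPM against 61.85 to 75.64 TPM.

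**Figure D4:**
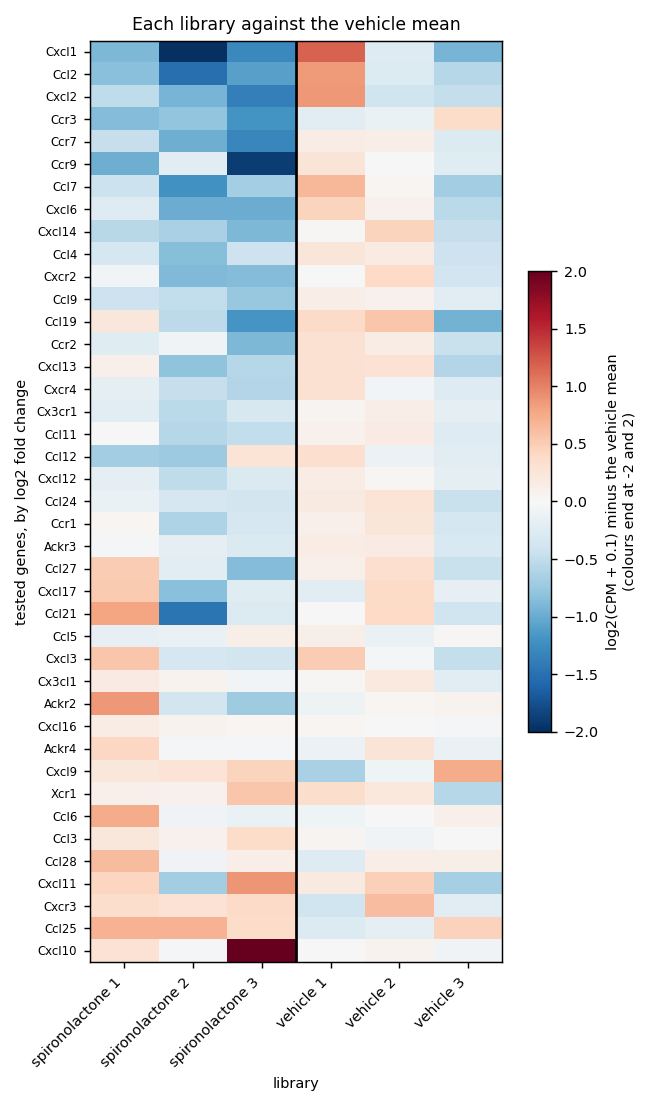
Difference of each library from the vehicle mean in log2(normalised CPM + 0.1) for tested genes, ordered by fold change (blue, lower; red, higher; colours end at -2 and 2). The strongest red cell is Cxcl10 in spironolactone replicate 3, and vehicle replicate 1 is red for Cxcl1, Ccl2 and Cxcl2.

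Ccl20, the single ligand of Ccr6 and a recruiter of dendritic and type 17 T cells, had the largest difference among genes outside the filter. Its counts were 3, 6 and 0 with spironolactone and 36, 28 and 10 with vehicle. The groups did not overlap, and every spironolactone library held fewer than 10 counts. Without the low-count filter edgeR gave a log2 fold change of -2.84 with an adjusted p of 0.106, and DESeq2 gave -2.92 with an adjusted p of 0.0254. With libraries left out, Ccl20 passed the filter only through its vehicle libraries, and did not pass it without vehicle replicate 1 or 2. In the other fits edgeR's adjusted p was 0.135 to 0.183 without 1 spironolactone library and 0.0496 without vehicle replicate 3. With both replicates 3 left out it was 0.0187. Ccr6 itself had 9, 4 and 4 counts against 8, 17 and 9. Xcr1, the receptor of cross-presenting dendritic cells, had a log2 fold change of 0.23.

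The lymphoid homing genes guide dendritic cells, T cells and B cells to lymphatics and lymphoid tissue. Their 4 tested members of 5 had negative values, 1 at an unadjusted p under 0.05, with a median of -0.49. Ccr7, the receptor that leads dendritic cells into lymphatic vessels, measured 0.620, 0.403 and 0.300 normalised CPM against 0.996, 0.985 and 0.717. The groups did not overlap at this low level, with a log2 fold change of -1.04 (SE 0.34, edgeR adjusted p = 0.146). Its ligands Ccl19 and Ccl21 had -0.53 (SE 0.50) and -0.09 (SE 0.57), and the B cell ligand Cxcl13 had -0.44 (SE 0.33). Ccl21, a product of lymphatic endothelium, spread from 4.07 to 19.7 normalised CPM within the spironolactone group. The 5 lymphatic endothelial markers summed to 372 to 510 TPM with spironolactone and 412 to 748 TPM with vehicle. Most of each sum was Pdpn alone, at 322 to 437 against 350 to 663 TPM. All 5 had negative log2 fold changes, from -0.98 (Prox1) to -0.10 (Lyve1). The 8 dendritic cell markers summed to 69.3 to 92.8 against 85.8 to 124 TPM. Most of each sum was Clec10a alone, at 57.51 to 82.25 against 72.79 to 107.5 TPM. The 7 tested had log2 fold changes from -0.67 (Flt3) to 0.05 (Clec9a), 6 of them negative. The part of these cells in the homing gene values was not tested.

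Eosinophil genes had negative values in all 3 tested members of 4, with a median of -0.34. Ccl11 (eotaxin), the second most abundant chemokine and a known product of corneal fibroblasts, measured 74.8, 49.9 and 52.9 normalised CPM against 79.1, 83.4 and 62.6. Spironolactone replicate 1 lay within the vehicle range, and the log2 fold change was -0.34 (SE 0.18, edgeR adjusted p = 0.309). Ccl24, another eotaxin, had -0.31 (SE 0.22). Their receptor Ccr3 was scarce, at 0.338, 0.362 and 0.250 against 0.581, 0.627 and 0.927. Its groups did not overlap, and its log2 fold change was -1.15 (SE 0.35, edgeR adjusted p = 0.127) from 70 counts in all. The 6 eosinophil markers summed to 1.45 to 3 TPM with spironolactone and 2.06 to 2.58 TPM with vehicle. Siglec5 and Alox15 were the 2 tested, with negative fold changes, while the granule genes Epx and Prg3 were listed at 0 in every library.

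The homeostatic group had negative values in all 4 tested genes, 3 of them at an unadjusted p under 0.05, with a median of -0.37. Cxcl12, which holds Cxcr4-bearing progenitors and leukocytes in place and guides endothelial cells, measured 142, 113 and 132 normalised CPM with spironolactone and 177, 165 and 142 with vehicle. The lowest vehicle and highest spironolactone libraries were level, and the log2 fold change was -0.32 (SE 0.11, edgeR adjusted p = 0.161). Its receptor Cxcr4 measured 12.1, 9.95 and 9.05 against 17.01, 13.2 and 11.4, a log2 fold change of -0.42 (SE 0.18, edgeR adjusted p = 0.219), with 1 library of each group in the overlap. Cxcl14, a constitutive chemokine of epithelia, measured 13.9, 13.0 and 10.9 against 20.7, 27.8 and 14.8. Every spironolactone library lay below every vehicle library, with a log2 fold change of -0.74 (SE 0.23, edgeR adjusted p = 0.136). DESeq2 gave the same fold change with an adjusted p of 0.0244, and edgeR's adjusted p was 0.0340 without vehicle replicate 3 and 0.184 to 0.326 without any other single library. Without vehicle replicate 2 the log2 fold change was -0.48. The epithelial markers had the opposite direction: all 11 had positive fold changes, 9 at an unadjusted p under 0.05, with a median of 0.58. The 11 markers of blood endothelium, which can carry Cxcr4, summed to 245 to 305 TPM against 316 to 454 TPM, all with negative fold changes, and their part in the Cxcr4 values was not tested.

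None of the 3 atypical receptors had an unadjusted p under 0.05. Ackr3, the scavenger of Cxcl12, measured 90.4, 81.8 and 76.1 normalised CPM against 103, 104 and 74.8, a log2 fold change of -0.18 (SE 0.14, edgeR adjusted p = 0.450). Vehicle replicate 3 was the lowest of all 6 libraries. Ackr2, which clears inflammatory CC chemokines, had 0.07 (SE 0.45), and Ackr4, which clears Ccl19, Ccl21 and Ccl25, had 0.12 (SE 0.18). Both changed sign when 1 library was left out, from -0.58 to 0.35 for Ackr2 and from -0.045 to 0.27 for Ackr4. Of the 10 genes of type 2 and tissue-homing T cells 4 were tested, with a median of 0.05. These were Ccl25 (0.61), its receptor Ccr9 (-0.93), Ccl27 (-0.16) and Ccl28 (0.26), all with a mean TPM under 2 and none with an unadjusted p under 0.05.

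The genes that carry the chemokine signal into the cell and move leukocytes were examined as a list of 27, all tested. At an unadjusted p under 0.05, 14 had lower and 3 higher values with spironolactone, none passing edgeR's adjusted test, and DESeq2 called 2 lower and 3 higher. Over all genes the shares were 10.4% lower and 12.2% higher with edgeR, and 3.44% and 5.81% with DESeq2. With edgeR the lower count at an unadjusted p (51.9% of the list) thus stood above its share and the higher one did not. With DESeq2 both counts stood above their shares, on 2 and 3 genes, and more were called higher than lower. The median log2 fold change was -0.30. Those with lower values included leukocyte proteins: the small GTPase Rac2 (-0.43, SE 0.10), its exchange factor Prex1 (-0.31, SE 0.08), and the PI3-kinase gamma subunits Pik3cg (-0.31) and Pik3r5 (-0.46). The 3 with higher values were Ptk2b (0.42), Plcb3 (0.32) and Gnai3 (0.17). Prex1 measured 8.58, 8.44 and 8.03 TPM with spironolactone and 10.8, 11.8 and 9.79 TPM with vehicle, without overlap. The sums of neutrophil, macrophage and T cell markers given above, the last mostly Cd4, had lower means with spironolactone alongside. The part of these cells in the values was not tested.

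Of 22 inducers of chemokines and parts of the NF-kappa-B pathway, 16 were tested, 4 with lower values at an unadjusted p under 0.05. Il6 measured 1.23, 0.48 and 0.33 TPM with spironolactone and 14.7, 5.07 and 1.61 TPM with vehicle, giving a log2 fold change of -3.35 (SE 0.96, edgeR adjusted p = 0.124). Vehicle replicate 1 was again the highest library, as it was for Cxcl1 and Ccl2. The interleukin-1 receptor Il1r1 (-0.60), Il1b (-0.94) and Relb (-0.38) were the other 3. Tnf, Ifng, Il4, Il13 and Csf2 were listed at 0 in every library. Of 10 genes for chemokine-binding matrix and cleavage, 2 were lower (Ext1 -0.22 and Ndst1 -0.14, both in heparan sulfate synthesis) and 1 higher (the proteoglycan Sdc1, 0.56) at an unadjusted p under 0.05. Of 10 chemoattractants and chemokines outside the symbols above, such as Pf4, C5ar1 and the chemerin gene Rarres2, 8 were tested, 6 had negative values and 0 reached an unadjusted p under 0.05 with edgeR.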

How the data were processed

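RNA-seq was measured in 6 day 3 libraries, 3 per treatment. The deposited day 3 tables list, for each gene symbol, expected counts of the RSEM kind and TPM values made by the authors, per the file headers. Per the submitters' processing notes the tools included STAR 2.5.3a and RSEM 1.2.28, on rat builds rn6 and Rnor_6.0; fastp, FastQC, Picard, DRAGEN, edgeR 3.28.0 and DESeq2 1.26.0 also appear there, without their roles. The use of strand in counting is not given there. The day 7 tables were not analysed here, because their gene IDs could not be paired with symbols.

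Expected counts were rounded. An unnamed row with 0.12% to 0.181% of the counts was left out. Genes were kept by edgeR's filter at a minimum count of 10, scaled by TMM and tested over all genes with edgeR 4.0.16 (quasi-likelihood, robust, R 4.3.3) with Benjamini-Hochberg adjustment at 0.05. Each standard error is the fold change on the log2 scale over the square root of F. Normalised CPM served comparisons within a gene and TPM levels between genes. Alternatives were DESeq2 1.42.0, limma-voom (limma 3.58.1), RLE factors, 2 other filters, length offsets, a replicate block and left-out libraries. The test was also run on simulated counts with the same fixed spread for every gene, so that run does not show how it performs on these libraries. No 2 libraries of the same group agreed within sampling noise.

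The members, the groups by recruited cell and the lists were chosen with earlier results of these data known. Genes with full values were those with an unadjusted p under 0.05, the 10 highest by mean TPM and a fixed set; Ccl20, Cxcl10 and others without full statistics were added after their values were seen. Promoter sequences came from RefSeq (GRCr8), a later build than that of the files. Some genes that these rules take are counted but not reported here.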

Additional observations from a re-analysis of the deposited data

How the results depend on the processing

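The median log2 fold change of the tested chemokine genes stayed negative under every alternative run, from -0.54 to -0.21 with 1 library left out and -0.34 or -0.38 on the TPM scale. Over all genes, edgeR called 148 without the low-count filter and 1040 with both replicates 3 left out, DESeq2 called 1334, and leaving out 1 library gave 0 to 781 (781 without vehicle replicate 3). Called chemokine genes numbered 3 with DESeq2, 2 with both replicates 3 left out and 0 to 2 with 1 library left out. Those lower at an unadjusted p under 0.05 ranged from 4 to 17 with 1 library left out, and those higher from 0 to 2, or 1 with both replicates 3 left out. Cxcl3 turned to 0.11 without spironolactone replicate 2 or 3 and to 0.26 without vehicle replicate 1, Ccl6 to -0.10 without spironolactone replicate 1, and Cx3cl1 to -0.024 without vehicle replicate 3; with 1 library left out they ran from -0.40 to 0.26, -0.10 to 0.39 and -0.024 to 0.17, and the cause was not tested. Of 332 alternative values for the 21 genes chosen by rule, 323 kept direction and side of the threshold, and 4 newly passed it.

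Same-numbered libraries did not deviate together (correlations of 0.09, -0.08 and 0.05), so the numbers were not taken as pairs. With a replicate block, 12 chemokine genes were lower at an unadjusted p under 0.05 and 0 were called. The planned day 7 comparison was not run. Counts under 100 in all, as for Ccl20, Ccr2, Ccr3 and Ccr7, limit what could be detected.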
